A study of Mus musculus with 12 samples.

Results

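The unfolded protein response and endoplasmic reticulum (ER) folding genes described here are 39 genes listed by symbol, of which 38 had a probe set with a single gene symbol and could be followed among 18193 genes in all. Each gene was read from its brightest probe set over the 12 arrays, and Sec61g, a small subunit of the translocon, had no probe set assigned to it alone. The cells were follicular B cells of the spleen, isolated by flow cytometry (B220+, CD23 high, CD21 low) at over 98% purity from C57Bl/6 mice aged 6 weeks. The mice were wild type (WT) or carried the IkL/L alleles of Ikzf1, which leave all cells of the animal, not only B cells, short of the transcription factor Ikaros. Cells of each genotype were cultured unstimulated for 3 h, or were exposed during 3 h or 12 h to goat F(ab')2 fragments against mouse IgM (10 µg/ml), an antibody that engages the B cell receptor. The 6 groups held 2 arrays each, from 2 independent experiments, so every comparison of 2 groups is of 2 arrays against 2. Averages over conditions and differences between responses use more arrays, but of the same experiments. Replicate error here is the spread between the 2 arrays of a group, pooled over the 6 groups, and the p-values speak of no other error. The 12 h cultures were both stimulated and kept longer than the unstimulated ones, and these cannot be told apart.

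The unfolded protein response is the signalling by which a cell matches its ER folding capacity to its load of secretory and membrane proteins. Its sensors are IRE1α (encoded by Ern1), PERK (Eif2ak3) and ATF6. IRE1α splices the mRNA of Xbp1 into the form that encodes an active transcription factor, PERK slows translation, and ATF6 is cut to release a transcription factor. Together they raise the transcription of chaperones, disulphide isomerases, translocon parts and factors of ER-associated degradation (ERAD), which returns misfolded proteins to the cytosol. In the B lineage the XBP1 arm is known for its part in the build-up of the secretory apparatus in plasma cells. The arrays measure the total Xbp1 transcript and give no value for its splicing, and they give no value for protein. In bulk samples, fewer cells of a type and less RNA per cell cannot be told apart.

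Many of the listed genes share a short promoter element, which is shown here as background. The element is known from genes of this response, so its share among the members follows from the list and is not a result. The ER stress response element (ERSE) was searched as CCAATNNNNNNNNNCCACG on both strands of windows of 300 bases (250 before to 50 after each start site, RefSeq, GRCm38.p6), in which 31 of the 39 genes were matched by symbol. It was found in 10 of the 31 members (32.3%) and in 37 of all 27025 genes with a window (0.137%). The variant ERSE-II, ATTGGNCCACG, was found in Herpud1 and Dnajb11 (6.45% of members, 0.0444% of all genes). The letters TGACGTGG, the core of the element read by XBP1, were found in Sec24d (3.23% of members, 0.714% of all genes). These are matches of letters and not sites shown to be bound. In the 250 bases before the start site of 3 members with different courses, capitals mark the CCAAT and CCACG letters of the element (CGTGG and ATTGG where it lies on the other strand). Hspa5 (chr2:34771840-34772089, plus strand) rose by 3 h. Hsp90b1 (chr10:86705445-86705694, minus strand) has 2 copies and, read from its brightest probe set, rose at 12 h in IkL/L cells. Ero1b (chr13:12565633-12565882, plus strand) fell.
Hspa5: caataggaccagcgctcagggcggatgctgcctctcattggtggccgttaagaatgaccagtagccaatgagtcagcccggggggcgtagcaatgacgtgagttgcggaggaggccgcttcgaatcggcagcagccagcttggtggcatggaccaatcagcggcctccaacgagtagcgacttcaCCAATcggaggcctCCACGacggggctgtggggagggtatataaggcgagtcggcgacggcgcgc
Hsp90b1: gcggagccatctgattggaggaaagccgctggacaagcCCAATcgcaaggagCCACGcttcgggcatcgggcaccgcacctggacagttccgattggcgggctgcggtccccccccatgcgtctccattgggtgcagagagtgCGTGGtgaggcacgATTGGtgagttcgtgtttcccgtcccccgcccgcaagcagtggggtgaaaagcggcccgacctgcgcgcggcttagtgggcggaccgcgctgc
Ero1b: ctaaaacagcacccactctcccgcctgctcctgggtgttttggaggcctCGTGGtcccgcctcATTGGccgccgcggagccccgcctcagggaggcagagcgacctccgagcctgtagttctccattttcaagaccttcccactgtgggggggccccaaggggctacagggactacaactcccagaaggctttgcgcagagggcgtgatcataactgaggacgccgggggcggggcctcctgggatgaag

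The sites of the other members with the ERSE or ERSE-II differ in the bases between the capital letters. The ERSE is written on the strand that reads CCAAT first, and ERSE-II on the strand that reads ATTGG first. They are shown because the genes that carry them moved in different ways.
Calr, chr8:84847075-84847093: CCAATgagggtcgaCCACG
Derl3, chr10:75893242-75893260: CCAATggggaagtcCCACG
Canx, chr11:50325800-50325818: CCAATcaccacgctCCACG
Pdia6, chr12:17266491-17266509: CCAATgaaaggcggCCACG
Dnajc3, chr14:118937827-118937845: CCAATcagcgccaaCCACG
Creld2, chr15:88819520-88819538: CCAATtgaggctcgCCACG
Syvn1, chr19:6046532-6046550: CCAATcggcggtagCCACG
Herpud1, ERSE-II, chr8:94386377-94386387: ATTGGgCCACG
Dnajb11, ERSE-II, chr16:22857852-22857862: ATTGGcCCACG

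The median log2 signal of an array was 3.12 to 3.21, and r between replicate arrays across genes was 0.990 to 0.994. A floor of 4.21, 1 above the highest array median, marks where a level is too close to background to give more than a bound; of the members, Derl3 lay under it on all 12 arrays, Sec24d on 10 and Sdf2l1 on 6. Ikzf1 read 9.85 and 9.83 in unstimulated WT cells and 10.00 and 9.94 in unstimulated IkL/L cells; the sources used here do not place its probe set relative to the altered part of the gene, so it checks nothing about genotype. The mean log2 level of 9 markers of follicular B cells was 10.63 and 10.68 in unstimulated WT cells and 10.26 and 10.33 in unstimulated IkL/L cells. It was lower on all stimulated arrays, at 9.66 and 9.88 at 3 h and 9.51 and 9.49 at 12 h in WT cells, and at 9.26 and 9.05, then 9.38 and 8.86 in IkL/L cells, and its part in the results on stimulation was not tested. Of the markers of other cells, 6 of 7 for T cells, 4 of 4 for NK cells, 4 of 6 for myeloid cells and 2 of 4 for erythroid cells lay under the floor on every array. The mean of 9 plasma cell markers ranged from 5.22 to 6.53 over the arrays and was not higher in any 12 h array than in the unstimulated arrays of its genotype. The mean of 5 neutrophil markers was higher in replicate 2 than in replicate 1 in all 6 groups, and its part in the results was not tested.

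Much of the ER folding machinery was higher after 12 h of stimulation in both genotypes, while the sensor PERK and the oxidase Ero1b went down several-fold. "Rose" and "fell" are used for an adjusted p under 0.05 by limma with the Benjamini-Hochberg method over all 18193 genes. In WT cells 15 of 38 members changed at 3 h (39.5%, against 19.4% of all genes): 9 rose and 6 fell, against 9.15% and 10.2% of all genes. At 12 h 17 changed (44.7%, against 18.8%): 13 rose and 4 fell, against 10.1% and 8.66%. Between 3 h and 12 h 10 changed (26.3%, against 10.8%): 6 were higher at 12 h and 4 lower, against 6.5% and 4.33%. The IkL/L cells had 13 changed members at 3 h (34.2%, against 20.4%): 8 rose and 5 fell, against 9.82% and 10.6%. At 12 h they had 20 (52.6%, against 17.6%): 17 rose and 3 fell, against 9.72% and 7.87%. Between 3 h and 12 h they had 17 (44.7%, against 15.5%): 14 were higher at 12 h and 3 lower, against 9.12% and 6.42%.

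Most members are expressed above the floor, and expressed genes as a whole changed more often than all genes. Among the 7801 genes whose mean lay above the floor, 41.1% changed in WT cells at 3 h and 39.6% at 12 h, and 42.3% and 36.5% in IkL/L cells. The share of members changed was thus close to that of expressed genes in WT cells, while in IkL/L cells it was below it at 3 h and above it at 12 h. The direction was more one-sided: at 12 h 13 of 17 changed members were higher in WT cells and 17 of 20 in IkL/L cells, while among the expressed genes 22% were higher and 17.6% lower in WT cells, and 20.4% and 16.1% in IkL/L cells. The median log2 difference of the members was 0.03 at 3 h and 0.34 at 12 h in WT cells (0.02 and 0.05 over all genes), and 0.10 and 0.48 in IkL/L cells (-0.03 and 0.02 over all genes). Leaving out any single array left 8 to 15 members changed in WT cells at 3 h and 11 to 17 at 12 h, and 9 to 14 and 15 to 20 in IkL/L cells. Of the 102 member calls over all comparisons, 51 kept an adjusted p under 0.05 without any single array, and for the calls whose size is given with the genes, the arrays that end a call are named, or their number and the one that gives the highest adjusted p.

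How much of the late rise is seen depends on the scaling of the arrays. When arrays were scaled to equal means of 8 housekeeping genes, the median log2 difference of all genes at 12 h went from 0.05 to -0.25 in WT cells and from 0.02 to -0.43 in IkL/L cells, and that of the members from 0.34 to 0.04 and from 0.48 to 0.03. Under that scaling 4 members rose and 5 fell at 12 h in WT cells, and 7 rose and 7 fell in IkL/L cells. Among all genes in IkL/L cells at 12 h, the same scaling gave 510 that rose and 4968 that fell. Falls thus far outnumbered rises among all genes there, but not among the members. The members that still rose were Hyou1, Sdf2l1, Pdia6 and Ssr2 in WT cells, and Sdf2l1, Dnajc3, Manf, Calr, Pdia3, Pdia6 and Ssr1 in IkL/L cells. No called member changed its sign. The housekeeping genes were themselves part of the movement: 3 of the 8 rose at 12 h in each genotype and 0 fell. At 3 h the same scaling moved the median of all genes by less than 0.1, yet it left 3 members that rose and 6 that fell in WT cells.

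**Figure D1:**
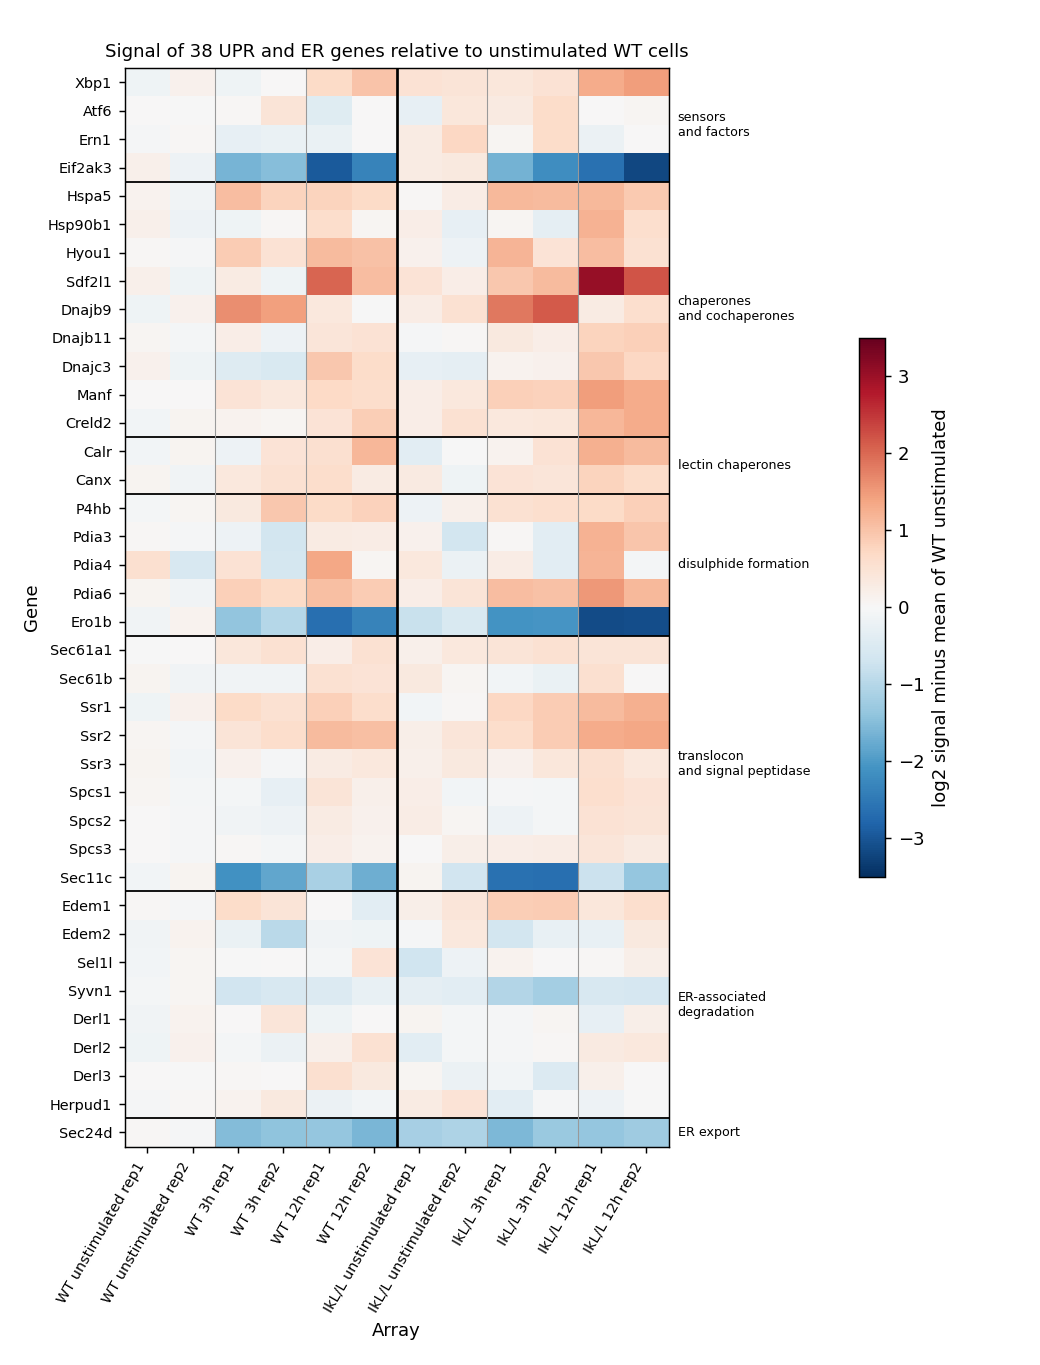
Each row is 1 of the 38 genes, ordered by role, and each column 1 of the 12 arrays; colour gives the log2 level minus the mean of the 2 unstimulated WT arrays. Most chaperone rows turn higher in the 4 arrays at 12 h, while Eif2ak3 and Ero1b turn lower in all 8 stimulated arrays, at 12 h in WT cells to log2 differences of -2.65 and -2.49.

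Among the sensors and factors, the transcript of Xbp1 rose late and that of PERK fell early and further. Xbp1, the transcription factor of the IRE1α arm, read 8.29 and 8.59 in unstimulated WT cells, 8.29 and 8.46 at 3 h and 9.10 and 9.43 at 12 h. Its IkL/L levels were 8.94 and 8.90, then 8.84 and 8.94, then 9.73 and 9.89. In both genotypes the 3 h arrays lay among or close to the unstimulated ones and both 12 h arrays lay above all others. The rise at 12 h was 1.78-fold in WT cells (log2 0.83, SE 0.15, adjusted p = 0.0032) and 1.86-fold in IkL/L cells (log2 0.90, SE 0.15, adjusted p = 0.00238). It kept its call without any single array in both genotypes, and lost it under housekeeping scaling. The 3 probe sets of Xbp1 above the floor all lay higher at 12 h, by 0.65 to 0.88 in WT cells and by 0.81 to 1.27 in IkL/L cells.

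Eif2ak3, which encodes PERK, read 10.34 and 9.97 in unstimulated WT cells, 8.52 and 8.66 at 3 h and 7.20 and 7.81 at 12 h. IkL/L cells gave 10.44 and 10.49, then 8.49 and 7.97, then 7.55 and 6.97. The groups of a genotype did not overlap, and the level went down at each step. It fell 2.95-fold at 3 h and 6.28-fold at 12 h in WT cells (log2 -2.65, SE 0.26, adjusted p = 8.94e-05), and 4.69-fold and 9.21-fold in IkL/L cells (log2 -3.20, SE 0.26, adjusted p = 4.04e-05). The further fall from 3 h to 12 h (log2 -1.09 in WT and -0.97 in IkL/L cells) rested on single arrays. In WT cells it was lost without 12 h replicate 1 (adjusted p = 0.138) or without replicate 1 or 2 at 3 h (0.087 and 0.116), and in IkL/L cells without 12 h replicate 2 (0.21) or 3 h replicate 1 (0.202).

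Ern1, which encodes IRE1α, read 5.23 and 5.33 in unstimulated WT cells, 4.98 and 5.04 at 3 h and 5.05 and 5.29 at 12 h. The IkL/L arrays read 5.57 and 6.00, then 5.34 and 5.91, then 5.08 and 5.30. Both unstimulated IkL/L arrays lay above both 12 h arrays, a log2 difference of -0.60 (SE 0.20, adjusted p = 0.0762), which passed with the replicate number as a block within genotype (adjusted p = 0.00562). Atf6, whose product is the third sensor, read 6.84 and 6.80, then 6.85 and 7.27, then 6.40 and 6.83 in WT cells, and 6.53 and 7.23, then 7.14 and 7.47, then 6.82 and 6.88 in IkL/L cells. Both 3 h arrays lay above the unstimulated and the 12 h ones in WT cells and above the 12 h ones in IkL/L cells, and Atf6 passed in no comparison with its brightest probe set. Its probe sets disagree: at 12 h in IkL/L cells the brightest gave a log2 difference of -0.03 and the others 0.80 and 1.42. With their mean Atf6 passed in IkL/L cells at 3 h (log2 0.81, adjusted p = 0.0165) and at 12 h (0.73, adjusted p = 0.0342).

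Most of the 9 luminal chaperones and their cochaperones were raised by 12 h. In WT cells 3 rose and 1 fell at 3 h, and 7 rose and 0 fell at 12 h (median log2 difference 0.67). The IkL/L cells had 4 that rose and 0 that fell at 3 h, and 8 rose and 0 fell at 12 h (median 0.88). Under housekeeping scaling the medians at 12 h were 0.37 and 0.43, with 2 and 3 genes that rose. The remaining gene at 12 h in IkL/L cells was Dnajb9, which was raised at 3 h and near its unstimulated level at 12 h in both genotypes.

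Hspa5 encodes BiP, the main Hsp70 chaperone of the ER, which also holds the sensors inactive. It read 11.40 and 11.16 in unstimulated WT cells, 12.35 and 12.05 at 3 h and 12.05 and 11.95 at 12 h. Its IkL/L levels were 11.31 and 11.53, then 12.42 and 12.39, then 12.42 and 12.19. All 8 stimulated arrays lay above all 4 unstimulated ones, and the 3 h and 12 h arrays of a genotype were close. The rise was 1.89-fold at 3 h in WT cells (log2 0.92, SE 0.15, adjusted p = 0.0015) and 1.98-fold in IkL/L cells (adjusted p = 0.000951). At 12 h it was 1.65-fold in WT cells (adjusted p = 0.00664) and 1.84-fold in IkL/L cells (adjusted p = 0.00245). The WT value at 12 h lost its call without unstimulated replicate 2 (0.0675), and both 12 h calls were lost under housekeeping scaling.

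Dnajb9 encodes ERdj4, a cochaperone of BiP and a familiar target of XBP1. It read 6.85 and 7.13 in unstimulated WT cells, 8.61 and 8.42 at 3 h and 7.37 and 6.97 at 12 h. IkL/L cells gave 7.26 and 7.51, then 8.83 and 9.14, then 7.29 and 7.59. The 3 h arrays stood apart at the top, and the 12 h arrays overlapped the unstimulated ones. Dnajb9 rose 2.88-fold at 3 h in WT cells (log2 1.52, SE 0.19, adjusted p = 0.000286) and 3.03-fold in IkL/L cells (log2 1.60, adjusted p = 0.000216). From 3 h to 12 h it fell by 1.35 on the log2 scale in WT cells (adjusted p = 0.00168) and by 1.55 in IkL/L cells (adjusted p = 0.000479). All 4 of these calls held without any single array. The Xbp1 transcript was near its unstimulated level when Dnajb9 was high, and above it when Dnajb9 was back.

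The opposite course, low at 3 h and high at 12 h, was that of Dnajc3, the cochaperone p58IPK, long known as an inhibitor of PERK. In WT cells it read 5.18 and 4.89 without stimulus, 4.57 and 4.49 at 3 h and 5.96 and 5.67 at 12 h. The IkL/L arrays read 4.74 and 4.72, then 5.15 and 5.18, then 5.98 and 5.76. The 3 h arrays thus lay below the unstimulated ones in WT cells and above them in IkL/L cells. The fall at 3 h in WT cells (log2 -0.50, SE 0.14, adjusted p = 0.0314) was lost without 3 h replicate 1 (0.0892), without 3 h replicate 2 (0.146) or without unstimulated replicate 1 (0.241), while in IkL/L cells the log2 difference was 0.43 (adjusted p = 0.059, and 0.0234 with the block). The difference between these responses was 0.94 (SE 0.20, adjusted p = 0.338), which did not pass. At 12 h Dnajc3 rose 1.72-fold in WT cells (adjusted p = 0.00324) and 2.20-fold in IkL/L cells (adjusted p = 0.000465), and another probe set of the gene gave -0.10 for the WT value.

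Sdf2l1, a partner of the luminal J proteins, was under the floor in unstimulated cells (3.71 and 3.38 in WT, 4.02 and 3.78 in IkL/L) and read 5.58 and 4.61 at 12 h in WT cells and 6.59 and 5.75 in IkL/L cells. It rose at least 1.85-fold in WT cells (log2 1.55, SE 0.33, adjusted p = 0.0079) and at least 3.88-fold in IkL/L cells (log2 2.27, SE 0.33, adjusted p = 0.0011). The WT call was lost without 12 h replicate 1 (adjusted p = 0.0569) or unstimulated replicate 2 (0.0674), and the IkL/L call held without any single array. Hyou1, the large chaperone GRP170 that recharges BiP with nucleotide, read 6.95 and 6.89, then 7.81 and 7.42, then 8.03 and 7.95 in WT cells, and 7.06 and 6.73, then 8.11 and 7.40, then 8.01 and 7.46 in IkL/L cells. All stimulated arrays lay above the unstimulated ones. Its rise at 12 h was 2.10-fold in WT cells (log2 1.07, SE 0.25, adjusted p = 0.0132), and the adjusted p was 0.065 and 0.0507 without 12 h replicate 1 and 2, and 0.0595 and 0.0779 without unstimulated replicate 1 and 2. In IkL/L cells it rose 1.79-fold (adjusted p = 0.0452), which was lost without any of 9 arrays, with the highest adjusted p 0.29 without IkL/L 12 h replicate 1. At 3 h the WT log2 difference was 0.69 (adjusted p = 0.0903, and 0.00325 with the block), and the 3 h call in IkL/L cells was lost without any of 5 arrays, at most 0.262 without IkL/L 3 h replicate 1.

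Manf and Creld2, secreted ER stress proteins, rose by 12 h in both genotypes. Manf read 8.38 and 8.38 in unstimulated WT cells, 8.87 and 8.76 at 3 h and 9.07 and 8.99 at 12 h. Its IkL/L levels were 8.60 and 8.74, then 9.21 and 9.18, then 9.83 and 9.68, so the groups climbed in order without overlap in each genotype. It rose 1.57-fold at 12 h in WT cells (log2 0.65, SE 0.11, adjusted p = 0.00211) and 2.12-fold in IkL/L cells (log2 1.09, SE 0.11, adjusted p = 0.000137). Its earlier rise at 3 h in WT cells was lost without 3 h replicate 1 (0.12), unstimulated replicate 1 (0.0886) or unstimulated replicate 2 (0.0899). Creld2 went from 7.70 and 7.88 to 8.26 and 8.66 at 12 h in WT cells, and from 8.01 and 8.32 to 8.94 and 9.08 in IkL/L cells. Its 3 h values overlapped the unstimulated ones in both genotypes. Its rise at 12 h was 1.60-fold in WT cells (adjusted p = 0.0123) and 1.80-fold in IkL/L cells (adjusted p = 0.0042). The WT call was lost without 12 h replicate 2 (adjusted p = 0.0982) or unstimulated replicate 1 (0.0981).

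Hsp90b1, the ER Hsp90 called GRP94, with the pair of elements shown above, read 8.96 and 8.61, then 8.64 and 8.83, then 9.39 and 8.84 in WT cells. The IkL/L arrays read 9.0 and 8.49, then 8.86 and 8.47, then 10.01 and 9.38. Both 12 h arrays lay above the other 4 in IkL/L cells, while in WT cells the groups overlapped. The log2 difference at 12 h was 0.33 in WT cells (SE 0.27, adjusted p = 0.526) and 0.95 in IkL/L cells (SE 0.27, 1.94-fold, adjusted p = 0.0349). The latter was lost without IkL/L 12 h replicate 1 (adjusted p = 0.24) or unstimulated replicate 2 (0.213), and the genotypes' responses differed by 0.62 (SE 0.38, adjusted p = 0.909). Its other bright probe set gave log2 differences of 0.90 in WT cells and 1.56 in IkL/L cells at 12 h. At 3 h that probe set read 9.0 and 8.27 in IkL/L cells, against 7.77 and 7.67 without stimulus. In WT cells it read 7.29 and 8.35 at 3 h, against 9.22 and 7.85. The last chaperone, Dnajb11, a J protein with ERSE-II chosen here after its values were seen, rose 1.38-fold in WT cells (adjusted p = 0.0434, lost without any of 10 arrays, at most 0.239 without WT unstimulated replicate 2) and 1.76-fold in IkL/L cells (adjusted p = 0.00289).

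**Figure D2:**
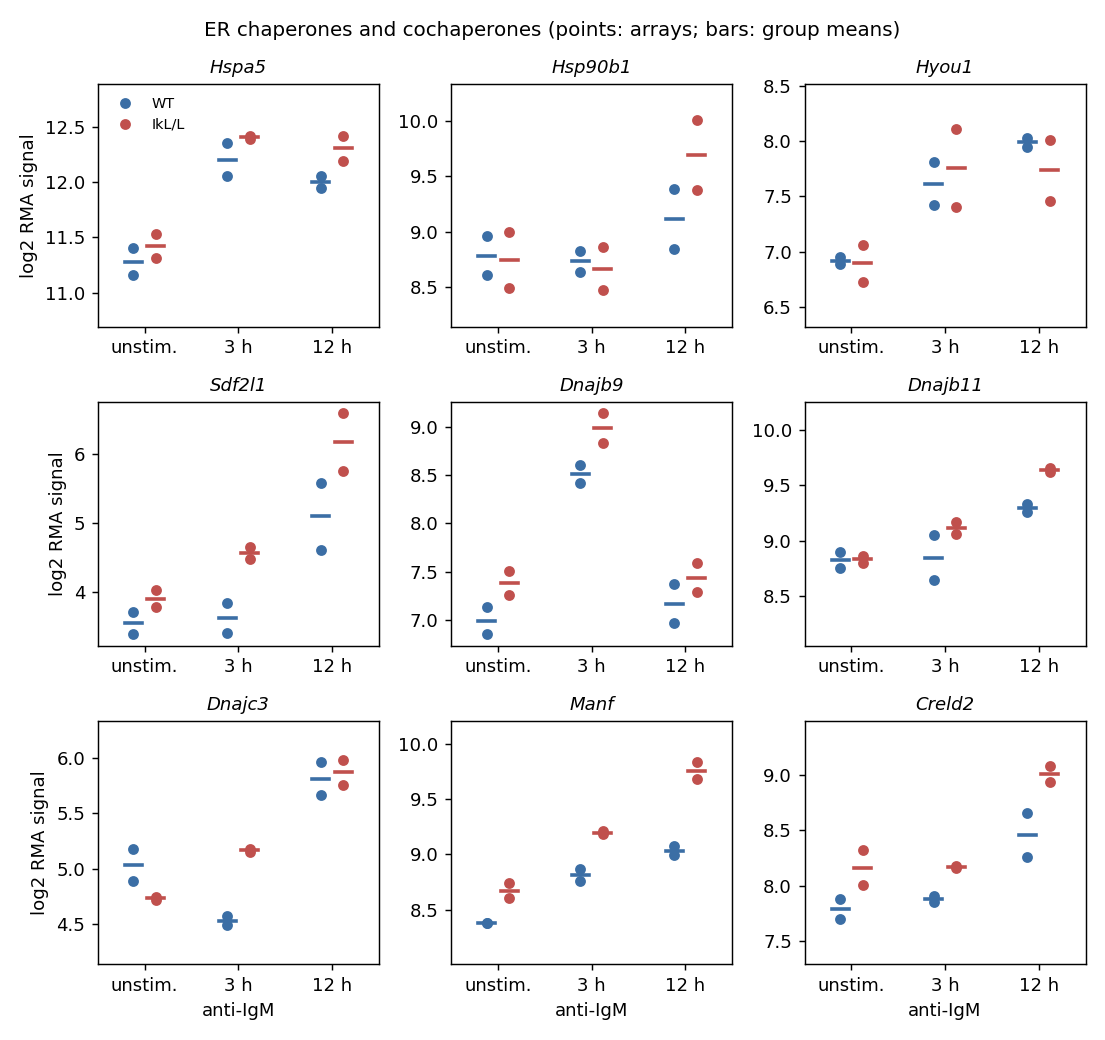
Points are single arrays of the 9 chaperones and cochaperones, with the log2 signal vertical and the 6 groups along the horizontal axis. Hspa5 is high at both times, Dnajb9 at 3 h only (8.42 to 9.14), and Sdf2l1, Dnajc3, Manf and Creld2 reach their top values at 12 h in each genotype.

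The lectin chaperones hold glycoproteins until they fold. Calr, which encodes calreticulin, read 8.54 and 8.74, then 8.46 and 9.12, then 9.21 and 9.79 in WT cells, and 8.28 and 8.62, then 8.77 and 9.14, then 9.88 and 9.76 in IkL/L cells. The 12 h arrays lay highest in both genotypes. Calr rose 1.82-fold at 12 h in WT cells (log2 0.86, SE 0.25, adjusted p = 0.0371) and 2.58-fold in IkL/L cells (log2 1.37, SE 0.25, adjusted p = 0.00396). The WT call was lost without any of 5 arrays, among them 12 h replicate 2 (adjusted p = 0.249), unstimulated replicate 1 (0.193) and unstimulated replicate 2 (0.0943), and without either IkL/L 12 h array (0.0513). Calr was also higher at 12 h than at 3 h in IkL/L cells, a call lost without any of 6 arrays, at most 0.247 without IkL/L 3 h replicate 1, and its 3 h difference to unstimulated cells, 0.50, passed with the block within genotype (0.0402). Canx, which encodes calnexin and is named after its values were seen, had a log2 difference of 0.45 in WT cells (adjusted p = 0.109, and 0.0494 with a block shared by both genotypes) and rose 1.55-fold in IkL/L cells (log2 0.63, adjusted p = 0.028). The latter was lost without 12 h replicate 1 (0.143), 12 h replicate 2 (0.0784) or unstimulated replicate 2 (0.19).

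Of the 4 isomerases of disulphide formation, 2 rose at 12 h in WT cells (P4hb and Pdia6) and 3 in IkL/L cells (the same with Pdia3), while the oxidase Ero1b fell. ERO1β, the product of Ero1b, passes oxidizing power to the protein disulphide isomerases. Ero1b read 10.74 and 10.96 in unstimulated WT cells, 9.46 and 9.85 at 3 h and 8.20 and 8.51 at 12 h. IkL/L cells gave 10.07 and 10.33, then 8.76 and 8.79, then 7.72 and 7.76. The groups went down in order without overlap in each genotype. It fell 2.29-fold at 3 h and 5.63-fold at 12 h in WT cells (log2 -2.49, SE 0.17, adjusted p = 1.16e-05), and 2.68-fold and 5.50-fold in IkL/L cells (log2 -2.46, SE 0.17, adjusted p = 1.75e-05). These 4 falls, and that from 3 h to 12 h in WT cells, kept their calls in all 23 other settings. Ero1b carries the same element as Hspa5 and Hsp90b1.

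Pdia6, an isomerase that binds BiP, read 8.97 and 8.76, then 9.70 and 9.53, then 9.93 and 9.75 in WT cells, and 9.11 and 9.31, then 9.95 and 9.89, then 10.38 and 10.01 in IkL/L cells. Every stimulated array lay above every unstimulated one. It rose 1.68-fold at 3 h in WT cells (adjusted p = 0.00586) and 1.97-fold at 12 h (log2 0.97, SE 0.15, adjusted p = 0.00138), and 1.63-fold and 1.98-fold in IkL/L cells (adjusted p = 0.00752 and 0.00152). The 3 h calls were lost without WT 3 h replicate 1 (0.0517) or WT unstimulated replicate 2 (0.0585), and without IkL/L unstimulated replicate 1 (0.0606). P4hb, the archetypal isomerase PDI, read 9.82 and 9.95, then 10.24 and 10.82, then 10.56 and 10.69 in WT cells, and 9.70 and 10.08, then 10.41 and 10.49, then 10.56 and 10.73 in IkL/L cells. At 12 h it rose 1.67-fold in WT cells (adjusted p = 0.0217, lost without any of the 4 arrays compared, at most 0.126 without unstimulated replicate 1) and 1.69-fold in IkL/L cells (adjusted p = 0.0205, lost without 12 h replicate 2 at 0.134 or unstimulated replicate 1 at 0.139). Its rise at 3 h in WT cells (1.56-fold, adjusted p = 0.0396) was lost without any of 9 arrays, at most 0.282 without WT 3 h replicate 2, and in IkL/L cells the log2 difference was 0.56 (adjusted p = 0.0688, and 0.0153 with the block).

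Pdia3, the isomerase ERp57 that works with the lectin chaperones, read 8.04 and 7.95, then 7.81 and 7.34, then 8.29 and 8.24 in WT cells, and 8.15 and 7.36, then 8.03 and 7.62, then 9.20 and 8.97 in IkL/L cells. The 12 h IkL/L arrays stood above the other 10. In IkL/L cells Pdia3 rose 2.52-fold at 12 h (log2 1.33, SE 0.25, adjusted p = 0.00463), a call kept in all 23 other settings. In WT cells the log2 difference was 0.27 (SE 0.25, adjusted p = 0.589). The responses differed by 1.06 (SE 0.36, adjusted p = 0.683), so no difference between the genotypes' responses was shown at this number of arrays. Pdia4, named after its values were seen, read 6.38 and 5.26 in unstimulated WT cells and 7.17 and 5.90 at 12 h, with replicate 1 above replicate 2 by 0.56 to 1.27 in all 6 groups. Its log2 difference at 12 h in WT cells, 0.71, had an SE of 0.58 and an adjusted p of 0.521 without the block and 0.00976 with it.

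Translocon and signal peptidase members went different ways. Ssr1 and Ssr2 encode α and β subunits of the translocon-associated protein complex, which helps nascent chains into the ER. Ssr2 read 7.42 and 7.27, then 7.78 and 7.95, then 8.46 and 8.40 in WT cells, and 7.55 and 7.77, then 7.96 and 8.22, then 8.63 and 8.69 in IkL/L cells, climbing without overlap between groups of a genotype. It rose 2.12-fold at 12 h in WT cells (log2 1.09, SE 0.13, adjusted p = 0.000333) and 2.00-fold in IkL/L cells (log2 1.00, adjusted p = 0.000637). Ssr1 read 8.45 and 8.76, then 9.26 and 9.13, then 9.43 and 9.21 in WT cells, and 8.50 and 8.63, then 9.32 and 9.48, then 9.71 and 9.85 in IkL/L cells. It rose 1.64-fold at 12 h in WT cells (adjusted p = 0.00536, and 0.0553 without unstimulated replicate 1) and 2.32-fold in IkL/L cells (adjusted p = 0.000326). Both were already up at 3 h, Ssr1 by 1.51-fold and Ssr2 by 1.43-fold in WT cells. Those early WT calls were lost without 3 h replicate 1 or unstimulated replicate 1 for Ssr1 (0.0984 and 0.132) and without 3 h replicate 2 or unstimulated replicate 2 for Ssr2 (0.126 and 0.141). The 3 h call of Ssr2 in IkL/L cells was lost without any of 10 arrays, at most 0.286 without IkL/L 3 h replicate 2.

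Sec11c, a catalytic subunit of the signal peptidase, which cuts signal sequences, moved the other way. It read 9.80 and 9.98 in unstimulated WT cells, 7.76 and 8.08 at 3 h and 8.76 and 8.17 at 12 h. The IkL/L arrays read 9.99 and 9.21, then 7.29 and 7.26, then 9.14 and 8.54. The 3 h arrays were the lowest in both genotypes, and the 12 h arrays lay between. It fell 3.91-fold at 3 h in WT cells (log2 -1.97, SE 0.29, adjusted p = 0.000792) and 5.01-fold in IkL/L cells (log2 -2.33, SE 0.29, adjusted p = 0.000277), and both calls were kept in all 23 other settings. In IkL/L cells it then rose 2.96-fold from 3 h to 12 h (adjusted p = 0.00474), and the log2 difference to unstimulated cells at 12 h was -0.76 (adjusted p = 0.109, and 0.0342 with the block). Its other probe set gave -2.02 for that last value, against -2.33 at 3 h.

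The other 6 measured members of the translocon and the signal peptidase had smaller differences. They lay between -0.18 and 0.46 on the log2 scale at 3 h and 0.18 and 0.50 at 12 h in WT cells, and between -0.36 and 0.23, then 0.09 and 0.48, in IkL/L cells. Sec61a1, the channel subunit, named like Spcs1 and Spcs2 after its values were seen, read 9.91 and 9.95 in unstimulated WT cells and 10.33 and 10.46 at 3 h. That rise of 1.38-fold (adjusted p = 0.0286) was lost without any of the 4 arrays compared (0.064 and 0.156 without 3 h replicate 1 and 2, 0.135 and 0.107 without unstimulated replicate 1 and 2). Sec61b, the β subunit of the translocon channel, read 9.42 and 9.44 at 3 h and 10.07 and 10.02 at 12 h in WT cells. It was 1.53-fold higher at 12 h than at 3 h (adjusted p = 0.0477), a call lost without any of 8 arrays, at most 0.177 without WT 3 h replicate 1. With the replicate block Sec61a1 and Sec61b passed at 12 h against unstimulated WT cells (adjusted p = 0.041 and 0.017). Spcs1 and Spcs2, accessory subunits of the signal peptidase, were higher at 12 h than at 3 h in IkL/L cells, by 1.51-fold (adjusted p = 0.0237) and 1.52-fold (adjusted p = 0.0057). The Spcs1 call was lost without any of the 4 arrays compared (0.124 and 0.0756 without 12 h replicate 1 and 2, 0.0917 and 0.114 without 3 h replicate 1 and 2), and that of Spcs2 held without any single array, while both were lost under housekeeping scaling. In all, 3 of the 9 genes of the group rose and 1 fell at 3 h in WT cells, and 2 rose and 1 fell at 12 h. Of the same 9, 2 rose and 1 fell at 3 h in IkL/L cells, and 2 rose and 0 fell at 12 h.

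ERAD factors had no shared direction. In WT cells 1 of 8 rose and 1 fell at 3 h, and 0 changed at 12 h by limma (0 of 8, with an adjusted p of 0.0636 for Syvn1 and 0.0719 for Derl3, which lay under the floor). With the replicate block these 2 passed at 12 h (adjusted p = 0.035 and 0.017). In IkL/L cells 1 rose and 2 fell at 3 h, and 1 rose and 1 fell at 12 h. Edem1, a lectin that hands misfolded glycoproteins to degradation, read 7.74 and 7.65, then 8.33 and 8.16, then 7.71 and 7.32 in WT cells, and 7.91 and 8.13, then 8.55 and 8.58, then 8.09 and 8.30 in IkL/L cells. With this probe set, its brightest, it was high at 3 h only, like Dnajb9. Edem1 rose 1.46-fold at 3 h in each genotype (adjusted p = 0.0282 for WT, 0.0276 for IkL/L). The WT call was lost without any of the 4 arrays compared (at most 0.171 without 3 h replicate 1) and the IkL/L call without 3 h replicate 1 (0.096), 3 h replicate 2 (0.125) or unstimulated replicate 1 (0.17). Its other probe set was higher at 12 h, by 0.53 in WT and 0.90 in IkL/L cells, where the one used gave -0.18 and 0.18. With the mean of both, Edem1 passed by limma at 12 h in IkL/L cells (log2 0.54, adjusted p = 0.043).

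Syvn1 encodes HRD1, the ubiquitin ligase at the core of ERAD. It read 8.85 and 8.99, then 8.26 and 8.36, then 8.44 and 8.67 in WT cells, and 8.61 and 8.54, then 7.90 and 7.74, then 8.35 and 8.32 in IkL/L cells. The 3 h arrays were the lowest in each genotype. It fell 1.52-fold at 3 h in WT cells (log2 -0.61, SE 0.12, adjusted p = 0.00502, and 0.051 without unstimulated replicate 2) and 1.69-fold in IkL/L cells (log2 -0.76, SE 0.12, adjusted p = 0.00134). Herpud1, a membrane partner of HRD1 with ERSE-II, read 9.64 and 9.73 without stimulus and 9.81 and 10.03 at 3 h in WT cells, and 9.96 and 10.16 without stimulus and 9.32 and 9.65 at 3 h in IkL/L cells. The log2 difference at 3 h was 0.24 in WT cells (adjusted p = 0.379), and in IkL/L cells Herpud1 fell 1.49-fold (log2 -0.58, SE 0.15, adjusted p = 0.0179, lost without 3 h replicate 1 at 0.144 or unstimulated replicate 2 at 0.105). The difference between the responses, -0.81 (SE 0.21), had an adjusted p of 0.506. At 12 h its fall in IkL/L cells (adjusted p = 0.0481) was lost without any of 10 arrays, at most 0.238 without IkL/L 12 h replicate 1.

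For ER export the list holds Sec24d, a cargo adaptor of the COPII coat that has the TGACGTGG letters at chr3:123267470-123267477. Its level was above the floor only in unstimulated WT cells, at 4.83 and 4.74. It read 3.26 and 3.39 at 3 h and 3.44 and 3.20 at 12 h in WT cells, and between 3.23 and 3.71 on the 6 IkL/L arrays. It fell at least 1.49-fold at both times in WT cells (adjusted p = 5.45e-05 at 3 h and 6.21e-05 at 12 h), calls kept in all 23 other settings. In IkL/L cells all 6 arrays were under the floor, so no fold is given there.

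**Figure D3:**
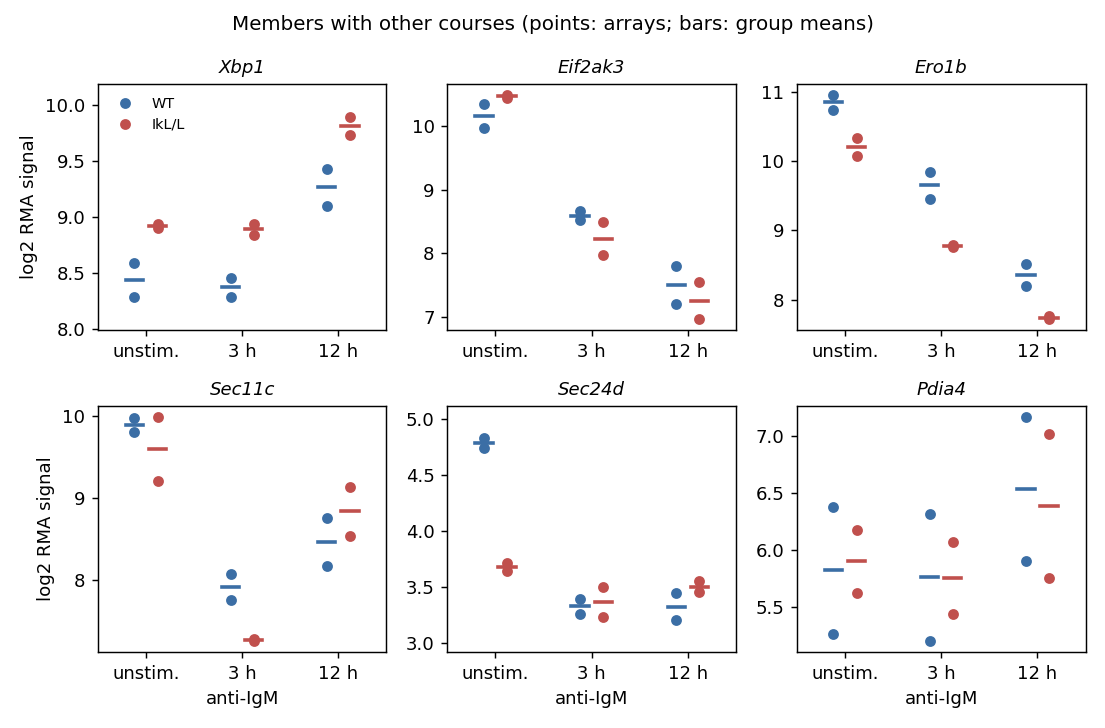
Points are single arrays of 6 genes, with the log2 signal vertical and the 6 groups along the horizontal axis. Eif2ak3 and Ero1b step down with time, Sec11c is lowest at 3 h, Xbp1 is highest at 12 h, Sec24d is above the others only in unstimulated WT cells (4.83 and 4.74), and Pdia4 parts by replicate number.

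Members with the ERSE in their promoter window were not of 1 kind in their response. Of the 10 with the ERSE, 5 rose and 1 fell at 12 h in WT cells (median log2 difference 0.57). Of the 20 measured members with a window and no ERSE, 5 rose and 2 fell (median 0.29). These 20 include Dnajb11 and Herpud1, which have ERSE-II, and Sec24d, which has the TGACGTGG letters. In IkL/L cells 7 of 10 rose and 1 fell (median 0.86), and 7 of 20 rose and 2 fell (median 0.40). At 3 h the element's genes had 2 that rose and 3 that fell in WT cells (median 0.07), and 2 and 2 in IkL/L cells (median 0.19). The falls at 3 h in WT cells were those of Dnajc3, Ero1b and Syvn1, and the rises those of Hspa5 and Pdia6.

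Most members that changed in 1 genotype were also called in the other, as were most genes at large, and no member's response was shown to differ between the genotypes. The responses of the genotypes share no arrays. At 3 h 7 genes rose in both (77.8% of those that rose in WT cells and 87.5% of those in IkL/L cells) and 4 fell in both (66.7% and 80%). At 12 h all 13 genes that rose in WT cells also rose in IkL/L cells (100% and 76.5%), and 2 fell in both (50% and 66.7%). Over the genes above the floor, 84.6% of those that rose at 3 h in WT cells rose in IkL/L cells too (81.2% of those in IkL/L cells), and 74.8% at 12 h (80.7%). For falls these shares were 80.6% and 79.3% at 3 h and 71.5% and 78.1% at 12 h. The 4 genes called higher at 12 h in IkL/L cells and not in WT cells were Canx, Derl2, Hsp90b1 and Pdia3. With the mean of its probe sets Canx was called higher in WT cells too (log2 0.74, adjusted p = 0.0028). Derl2, a derlin of the ERAD channel named after its values were seen, rose 1.46-fold (adjusted p = 0.0401), which was lost without any of 7 arrays, at most 0.226 without IkL/L unstimulated replicate 1; its other probe set gave -0.49. The test of the difference between the responses called 0 of 38 members by limma at 3 h and 0 of 38 at 12 h, against 0.0385% and 0.022% of all genes. At an unadjusted p under 0.05 by limma there were 3 of 38 members at 3 h and 4 of 38 at 12 h. No share of all genes stands beside these unadjusted counts, so no excess among the members is read from them. With the adjusted p, either replicate block, or averaging the probe sets within each gene, called 1 member at 12 h.

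Closest to passing was Sec24d, whose response at 12 h was higher in IkL/L cells by 1.29 (SE 0.19, adjusted p = 0.0661). With the replicate block it passed (adjusted p = 0.0323 within genotype and 0.0472 with the block shared by both genotypes). The values behind it are the 2 unstimulated WT arrays above the floor and 10 arrays under it. At 3 h the difference was 1.15 (SE 0.19, adjusted p = 0.136).

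**Figure D4:**
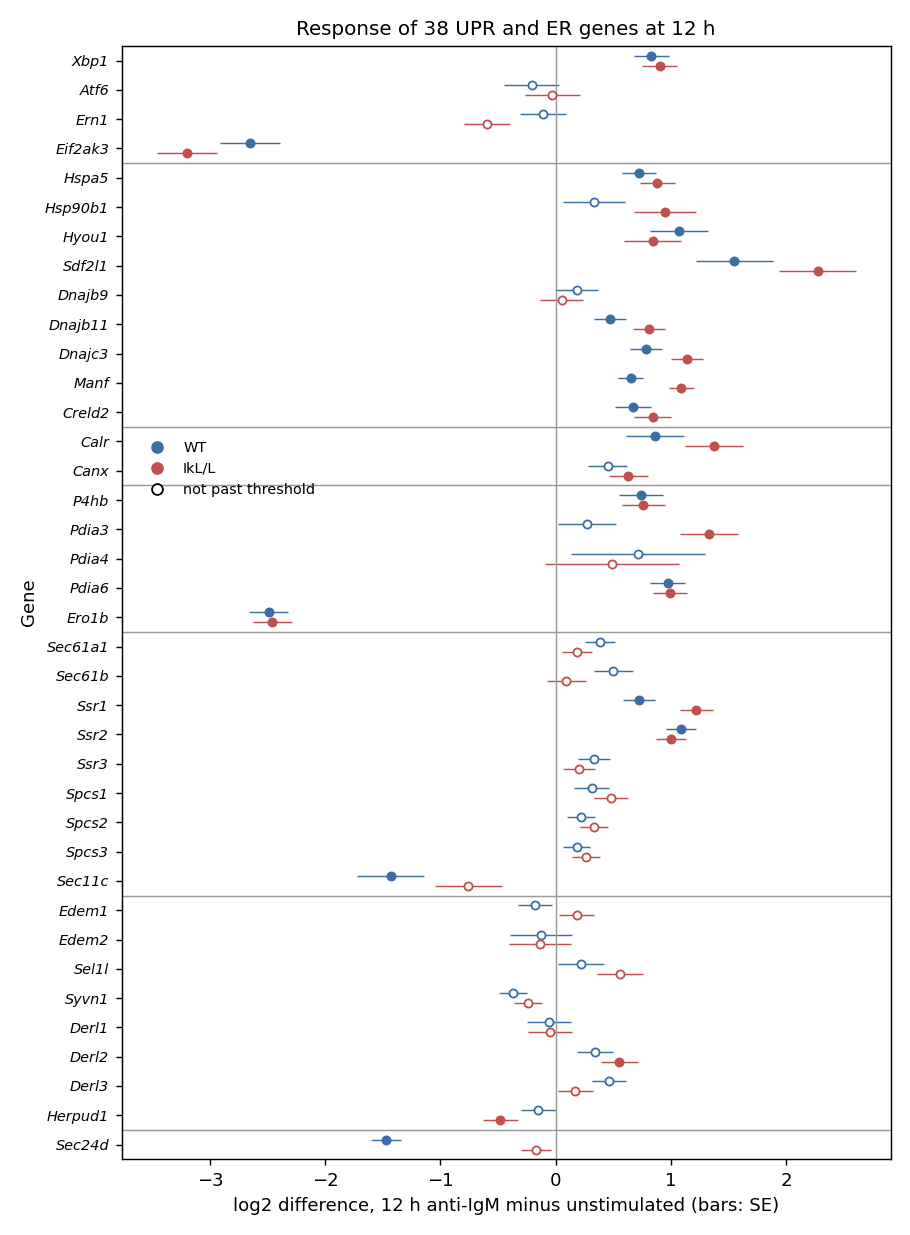
For each of the 38 genes the points give the log2 difference of 12 h against unstimulated cells in each genotype, the bars are ± 1 SE, and filled points have an adjusted p under 0.05. Most pairs of points lie on the same side of 0, and they reach from Eif2ak3 (-2.65 in WT and -3.20 in IkL/L cells) to Sdf2l1 (1.55 and 2.27).

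The genotypes themselves differed at few members in any single condition. Unstimulated cells had 1 member called (2.63%, against 1.13% of all genes), 3 h cells 1 (against 1.7%) and 12 h cells 1 (against 0.616%). In unstimulated cells this was Sec24d, at least 1.49-fold lower in IkL/L cells (log2 -1.11, SE 0.13, adjusted p = 0.00495). At 3 h it was Ero1b, 1.84-fold lower in IkL/L cells (log2 -0.88, SE 0.17, adjusted p = 0.0309), a call lost without IkL/L 3 h replicate 1 (0.118), IkL/L 3 h replicate 2 (0.207) or WT 3 h replicate 2 (0.217). At 12 h it was Manf, 1.65-fold higher in IkL/L cells (log2 0.73, SE 0.11, adjusted p = 0.0216), a call lost without IkL/L 12 h replicate 1 (0.0797), IkL/L 12 h replicate 2 (0.107) or WT 12 h replicate 2 (0.171). The Ero1b and Manf calls were also lost under housekeeping scaling.

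Averaged over the 3 conditions, 7 members differed between the genotypes (18.4%, against 6.08% of all genes and 11.5% of those above the floor). Higher in IkL/L cells were 5 (against 3.41% of all genes), Xbp1, Sdf2l1, Manf, Creld2 and Edem1, and lower were 2 (against 2.67%), Ero1b and Syvn1. Xbp1 was higher by 0.48 in unstimulated cells, 0.52 at 3 h and 0.55 at 12 h, each without overlap of the arrays, and by 0.52 on average (SE 0.09, adjusted p = 0.00755). Manf was higher by 0.47 on average (SE 0.06, adjusted p = 0.00251), and Ero1b lower (log2 -0.72, SE 0.10, adjusted p = 0.00219). These 3 held without any single array, and Xbp1 was lost under housekeeping scaling. The fit behind all 7 takes same-numbered arrays of a genotype as independent, although they deviated together. Its SEs and adjusted p for this average may thus be too small. Sdf2l1 (log2 0.79, adjusted p = 0.0405, with 6 arrays under the floor, so that this size is partly against background), Creld2 (0.41, 0.0285), Edem1 (0.44, 0.0162) and Syvn1 (-0.35, 0.017) were each lost without some single arrays. The highest adjusted p was 0.12 for Sdf2l1 without IkL/L 3 h replicate 2 (10 arrays lose it), 0.086 for Creld2 without IkL/L 12 h replicate 2 (8 arrays), 0.0557 for Edem1 without WT unstimulated replicate 2 (4 arrays) and 0.0605 for Syvn1 without the same array (4 arrays).

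Markers of other cells also differed between the genotypes, and their part in these differences was not tested. The mean of 5 neutrophil markers was 3.22 and 4.65 in unstimulated WT cells against 4.35 and 6.06 in IkL/L cells, 3.22 and 4.95 against 4.29 and 5.74 at 3 h, and 3.38 and 5.69 against 3.92 and 5.07 at 12 h. It was thus higher in IkL/L cells for both replicate numbers without stimulus and at 3 h, and only for replicate 1 at 12 h. The mean of 5 marginal zone B cell markers was 6.89 to 7.29 on the WT arrays and 7.22 to 7.82 on the IkL/L arrays, higher in IkL/L cells in each condition. Among these, Cd9 was 7.75 on average in unstimulated IkL/L cells against 5.70 in WT cells, while Cd1d1 (6.90 against 6.96) and Dtx1 (8.26 against 8.63) were not higher.

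With the replicate number as a block within genotype the average difference was called for 13 members, and for 2 in unstimulated cells, 6 at 3 h and 6 at 12 h. Calls over all genes went up as well, on average from 1107 to 2371. They went from 205 to 717 in unstimulated cells, from 310 to 935 at 3 h and from 112 to 467 at 12 h. That block takes the differences between the experiments of a genotype out of the error of a comparison between genotypes, so these counts rest on less of the biological spread. The added calls on average were Ern1 (higher in IkL/L cells by 0.38, adjusted p = 0.00678), Dnajb9 (0.0197), Pdia6 (0.0231), Sec24d (0.0254), Ssr2 (0.041) and Derl3 (0.0424, under the floor). Xbp1 passed at 3 h (0.0322) and 12 h (0.0387) in that fit. It also added Ero1b in unstimulated cells (0.0161), Ern1 (0.0205), Sdf2l1 (0.0414), Dnajc3 (0.0162) and Syvn1 (0.0342) at 3 h, and Sdf2l1 (0.0376), Pdia3 (0.0282), Ero1b (0.0254) and Edem1 (0.0208) at 12 h. Between 3 h and 12 h in WT cells the block raised the count of changed members from 10 to 18, adding Calr (0.0113), Pdia3 (0.0136), Pdia4 (0.00942), Spcs1 (0.0178), Derl3 (0.0375, under the floor), Herpud1 (0.0393), Derl2 (0.0446) and Dnajb11 (0.048). Over all genes the block within genotype raised that count from 1970 to 3090. That block also added in IkL/L cells Edem2 at 3 h (0.0433), Spcs1 (0.0147) and Sel1l (0.0398) at 12 h, and Ern1 (0.0322), Pdia4 (0.0212), Sec61b (0.0323) and Derl3 (0.042) at 12 h against 3 h. In WT cells at 3 h the block shared by both genotypes added Canx (0.048).

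Beyond the members, 12 of 13 genes listed for the PERK and ATF4 branch were measured, and more of them rose at 3 h than at 12 h. The list is general knowledge, and whether PERK raised these genes was not tested. In WT cells 8 rose and 0 fell at 3 h (median log2 difference 1.23, against 0.02 over all genes), and 2 rose at 12 h (median 0.54). Among IkL/L cells 5 rose at 3 h (median 0.85) and 4 at 12 h (median 0.42), and 0 fell at either time. Of the genes above the floor, 20.4% rose at 3 h and 22% at 12 h in WT cells, and 21.3% and 20.4% in IkL/L cells. Chac1, a glutathione-degrading enzyme induced by ATF4, read 4.72 and 5.02 in unstimulated WT cells, 7.62 and 7.38 at 3 h and 7.84 and 8.74 at 12 h. Its IkL/L levels were 5.87 and 6.93, then 7.49 and 8.36, then 7.86 and 8.84, so its unstimulated arrays lay above the WT ones. It rose by 2.63 at 3 h in WT cells (adjusted p = 0.00201) and by 1.53 in IkL/L cells (adjusted p = 0.0351). Atf3, on the same list, rose at least 5.93-fold in WT cells (adjusted p = 0.0061), where 1 of the 2 unstimulated arrays lay under the floor. In IkL/L cells it rose by 2.27 on the log2 scale (adjusted p = 0.013). Cebpb rose at least 3.13-fold (adjusted p = 0.00682) and at least 2.94-fold (adjusted p = 0.02), against unstimulated levels of 3.66 and 3.61 in WT cells and 3.72 and 4.92 in IkL/L cells.

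Ddit3, which encodes the stress factor CHOP, read 7.60 and 7.72 in unstimulated WT cells, 9.09 and 9.32 at 3 h and 7.85 and 8.48 at 12 h. The IkL/L arrays read 8.02 and 8.30, then 8.45 and 8.71, then 7.68 and 7.96. In each genotype the 3 h arrays stood highest. From 3 h to 12 h Ddit3 fell by 1.04 in WT cells (SE 0.21, adjusted p = 0.0108) and by 0.75 in IkL/L cells (adjusted p = 0.0351). Ppp1r15a, which encodes GADD34, the phosphatase subunit that undoes PERK's mark on the translation factor eIF2α, fell by 1.73 in WT cells (adjusted p = 0.0116) and 1.84 in IkL/L cells (adjusted p = 0.006) between 3 h and 12 h. No gene of this list passed the test of genotype or of the difference between responses. The transcript of PERK itself was 2.95-fold down in WT cells at 3 h, when 8 of these genes were raised. The activity of PERK was not measured.

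**Figure D5:**
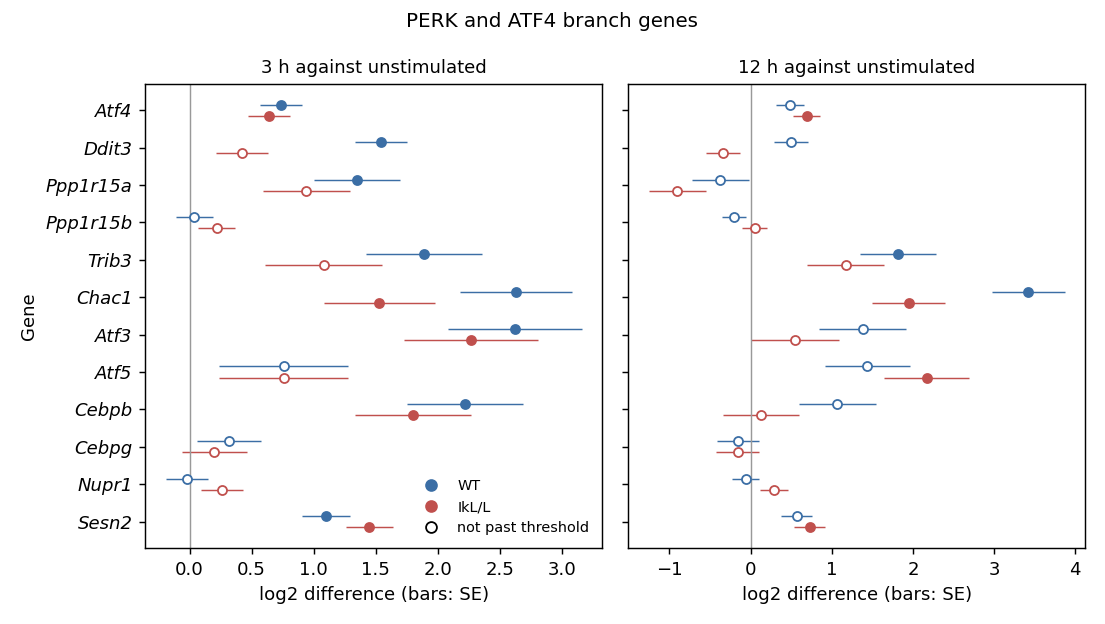
For 12 genes listed for the PERK and ATF4 branch the points give the log2 difference against unstimulated cells in each genotype and at each time. Filled points have an adjusted p under 0.05. For WT cells 8 genes are filled at 3 h and 2 at 12 h, for IkL/L cells 5 and 4, and Chac1 is high at both times.

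Other ER genes outside the members were counted by list in the same way. Beside their counts stand the genes above the floor, of which 41.1% changed in WT cells at 3 h and 39.6% at 12 h. In IkL/L cells these shares were 42.3% and 36.5%. Over all genes they were 19.4% and 18.8% in WT cells, and 20.4% and 17.6% in IkL/L cells. No list was tested against these shares. Of 10 oligosaccharyltransferase genes, which attach glycans to new proteins, 5 rose and 0 fell at each time in WT cells (medians 0.41 and 0.54), and 2 and then 5 rose and 0 fell in IkL/L cells (medians 0.29 and 0.56). Stt3a, a catalytic subunit, rose by 0.54 at 3 h in WT cells (adjusted p = 0.00924) and 0.63 in IkL/L cells (adjusted p = 0.00403). Of 17 further folding enzymes, 3 rose and 3 fell at 3 h in WT cells and 4 rose and 1 fell at 12 h, with 2 and 3, then 6 and 1, in IkL/L cells. Ero1a, the sister oxidase of Ero1b, rose where Ero1b fell, by 1.47 at 3 h in WT cells (SE 0.24, adjusted p = 0.00158) and 1.66 in IkL/L cells (adjusted p = 0.000724). Erp29, a folding factor of the ER lumen, fell by 1.07 at 3 h in WT cells (adjusted p = 0.00227) and 1.57 in IkL/L cells (adjusted p = 0.00023), then rose by 0.92 and 1.68 from 3 h to 12 h (adjusted p = 0.0111 and 0.000309).

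Of 14 further genes of signal recognition and translocation, 5 rose and 2 fell at 3 h in WT cells and 6 rose and 2 fell in IkL/L cells. Tram1, a membrane protein beside the translocon, fell by 0.89 and 1.36 (adjusted p = 0.00142 and 0.000112), while Sec61a2, an alternative channel subunit, rose by 0.86 and 1.32 (adjusted p = 0.00365 and 0.000263). Of 14 further ERAD genes, 5 rose and 2 fell at 12 h in WT cells and 4 rose and 1 fell in IkL/L cells. Vcp, the ATPase that pulls substrates out of the membrane, rose by 1.14 at 12 h in IkL/L cells (adjusted p = 0.000954), and Herpud2 fell by 1.20 in WT cells (adjusted p = 5.26e-05). Of 19 genes of ER to Golgi transport, 6 rose and 1 fell at 3 h in each genotype. Sec24a, a relative of Sec24d, rose by 1.62 in WT cells (adjusted p = 5.4e-05) and 1.27 in IkL/L cells (adjusted p = 0.000185) at 3 h, and fell by 1.66 and 1.49 by 12 h. Of 9 further ER stress genes, only some are relatives of ATF6 and CREB3. At 3 h 1 of the 9 rose in WT cells (Bhlha15, adjusted p = 0.00352, not such a relative). At the same time 2 fell in IkL/L cells (Creb3 by 0.69, adjusted p = 0.00583, and Creb3l2, adjusted p = 0.00712). Bhlha15 and Creb3l2 each lay under the floor on 11 arrays, so no fold is given for them. The medians of the list at 12 h were -0.15 and -0.05.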

How the data were processed

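Total RNA of 12 samples (2 genotypes, 3 conditions, 2 replicates) was labelled in 2 cycles from 100 ng and hybridized to Affymetrix arrays, per the labels' protocols. The deposited values are log2 signals that the authors obtained with RMA (version not given in the sources used here), per the submitters' processing notes. Sample titles supplied group and replicate number. Of 45037 probe sets, 34945 have 1 gene symbol in the platform annotation, 932 have several and 9160 are not listed; the latter 2 kinds were left out. The 38 measured members have 92 probe sets, and 27 have more than 1. Of these the probe set with the highest mean stood for its gene.

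A model with the 6 group means was fitted to the 12 arrays in limma 3.58.1 (R 4.3.3; lmFit and eBayes; degrees of freedom 6 residual and 3.95 prior), with p-values adjusted by Benjamini-Hochberg over 18193 genes. SE is the moderated standard error. The script was tested on simulated data. A fold is "at least" where the lower group has arrays under the floor, which were raised to it. Tables and figures used Python 3.11.15, pandas 2.3.3 and matplotlib 3.10.9. Depth in the sense of counts does not apply to arrays, and their number limits the precision.

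Named are Xbp1, Atf6, Ern1, Eif2ak3, Hspa5 and, per comparison, the 5 largest rises and falls among called members, with at most 3 genes per other list and comparison. Members and lists were chosen with earlier results of these data known. Housekeeping and marker lists are general knowledge.

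Same-numbered arrays deviated together within a genotype over the 6064 brightest genes (r from 0.546 to 0.619 in WT and 0.354 to 0.490 in IkL/L cells, 3 of 3 pairs each over 0.1) and less so across genotypes (0.026 to 0.310, 8 of 9 pairs). Pairing was accepted within each genotype, and the principal fit has no block. The 23 alternatives were a replicate block within genotype or shared, mean of probe sets, removal of the dimmest genes, an intensity trend, equal array medians, equal housekeeping means and 16 settings that leave out arrays. Promoter windows of 8 members were not used here.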

Additional observations from a re-analysis of the deposited data

How the results depend on the processing

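Of the 102 member calls, 24 kept an adjusted p under 0.05 in all 23 alternatives. Equal housekeeping means lost 50, the mean of probe sets 12, the intensity trend and equal array medians 9 each, the dim filter 2 and either replicate block 0. Counts of changed members and genes kept within 1.5 times, or at 0, in the other settings not listed here. With 2 arrays a group, a group left with 1 array is assumed to vary like the others.

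With equal housekeeping means the changed members were 9 in WT cells at 3 h, 9 at 12 h, 6 at 12 h against 3 h, 9 in IkL/L cells at 12 h against 3 h, 0 and 0 between genotypes at 3 h and 12 h, and 3 on average. All changed genes were 5478 in IkL/L cells at 12 h (510 higher and 4968 lower), 80, 111 and 33 between genotypes without stimulus, at 3 h and at 12 h, 613 on average and 1 for the 3 h response difference.

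With the replicate block within genotype the changed members were 18 in WT cells at 12 h against 3 h, 2, 6 and 6 between genotypes, 13 on average and 1 (Sec24d) for the 12 h response difference. All changed genes were 3090, 717, 935, 467 and 2371, with 27 and 26 for the response differences at 3 h and 12 h. With the shared replicate block the members were 17, then 2 and 3 between genotypes without stimulus and at 3 h, and 1 for the 12 h response difference, and all genes 400, 572, 187 and 1763, with 11 and 19. Neither block removed a member call.

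The mean of probe sets gave 2 members between unstimulated genotypes and 1 for the 12 h response difference, and 2 and 13 genes for the response differences. It ended the calls of Dnajc3 and Pdia6 in WT cells at 3 h, Hyou1 and Dnajc3 at 12 h and Eif2ak3 and Edem1 between these times, of Hyou1 in IkL/L cells at 3 h, Hyou1 and Derl2 at 12 h and Eif2ak3 and Hsp90b1 between these times, and of Syvn1 on average between genotypes. It turned Atf6 at 12 h in IkL/L cells from -0.03 to 0.73. Calls that it added in WT cells were Canx and Derl1 at 3 h, Canx at 12 h and Calr between these times. In IkL/L cells it added Atf6, Canx and Sec61a1 at 3 h, and Sec61a1, Ssr3, Spcs1, Sec11c, Edem1 and Sel1l at 12 h. Between genotypes it added Ero1b without stimulus, and Canx and Sec24d on average. The dim filter gave 2 genes for the 3 h response difference, the intensity trend 7 and equal medians 2 for the 12 h one, and equal medians 0 members between genotypes at 3 h.

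Leaving out 1 array, or 1 replicate of a genotype, gave 5 to 15 changed members in WT cells at 3 h, 8 to 17 at 12 h and 2 to 11 between these times. The ranges were 5 to 14, 8 to 20 and 2 to 17 in IkL/L cells, 0 to 1, 0 to 1 and 0 to 2 between genotypes, 0 to 8 on average and 0 to 0 for both response differences. For all genes they were 1771 to 3625, 1589 to 3545 and 412 to 2082 in WT cells, 1963 to 3800, 1381 to 3325 and 1058 to 2974 in IkL/L cells, 16 to 204, 17 to 327 and 4 to 162 between genotypes, 227 to 1305 on average, and 0 to 2 and 0 to 7 for the response differences. Sec24d in unstimulated cells was lost in the 4 settings without a whole replicate.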
